A study of Homo sapiens with 3 samples.

Results

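Cholesterol synthesis was followed through 8 genes named by symbol: HMGCS1, IDI1, FDFT1, SQLE, CYP51A1, MSMO1, DHCR7 and INSIG1. All 8 were found among the 19912 features of each library. The choice rested on symbols, with earlier results of these data known. The cells were HCT116, an established human colorectal carcinoma line, carrying GFP on histone H2B. They had been kept in a microfluidic organ chip with a top and a bottom channel, where peristalsis was imitated by stretching the device for 6 days. The 3 groups were cells of the top channel without stretch, cells of the top channel with stretch, and cells of the bottom channel with stretch, which the labels call invaded. Each group was 1 library. A bottom channel library without stretch was not analysed here, so the channels were compared under stretch only. All 3 groups shared the cell line, the H2B-GFP label, the trypsin harvest, the GFP sort and the droplet 3′ chemistry.

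Cells build cholesterol from acetyl-CoA through the mevalonate pathway to squalene, close squalene into lanosterol, and then trim lanosterol into cholesterol. When sterols in the endoplasmic reticulum membrane are low, the escort protein SCAP carries SREBP transcription factors to the Golgi, where they are cut and released to switch on nearly every enzyme of the pathway. When sterols are plentiful, INSIG proteins hold SCAP back. Proliferating carcinoma cells need cholesterol for new membranes and obtain it by synthesis and by uptake of lipoproteins.

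SREBP factors act at many of their targets beside NF-Y, a factor that binds the letters CCAAT, so the start sites of the members are shown before their levels. RefSeq promoter windows (build GRCh38.p14, the 250 bases before each start) were found for 6 of the 8 members, HMGCS1, CYP51A1, INSIG1, IDI1, DHCR7 and MSMO1. CCAAT on either strand was present in at least 1 window of 5 of those 6 members, all but CYP51A1, and in 37.0% of 27305 genes with a window. The sterol response element letters TCACNCCAC, where N is any base, were in no window of the 6 members and in 1.09% of those genes. A match describes letters only, and its absence says nothing about the factor. Stretches free of annotated exons are printed 5′ to 3′ on the strand of the gene, with CCAAT, or ATTGG where it lies on the other strand, in capitals. MSMO1 is shown for its 4 matches, 3 of them in the stretch printed (chr4:165327419-165327622, + strand), DHCR7 for 2 at its first listed start (chr11:71448436-71448643, − strand), INSIG1 for 1 (chr7:155297628-155297775, + strand) and CYP51A1 because it had none (chr7:92134531-92134665, − strand).
MSMO1: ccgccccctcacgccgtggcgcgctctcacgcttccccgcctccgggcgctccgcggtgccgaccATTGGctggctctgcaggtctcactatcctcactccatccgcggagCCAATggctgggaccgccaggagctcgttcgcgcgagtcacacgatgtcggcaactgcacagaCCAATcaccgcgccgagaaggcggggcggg
DHCR7: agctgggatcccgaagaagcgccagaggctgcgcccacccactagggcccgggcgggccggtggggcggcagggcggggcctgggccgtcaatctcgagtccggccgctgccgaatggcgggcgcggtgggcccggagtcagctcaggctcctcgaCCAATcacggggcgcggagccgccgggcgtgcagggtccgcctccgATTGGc
INSIG1: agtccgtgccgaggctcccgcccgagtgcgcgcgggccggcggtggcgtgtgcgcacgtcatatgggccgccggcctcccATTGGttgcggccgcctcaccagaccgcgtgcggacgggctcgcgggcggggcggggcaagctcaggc
CYP51A1: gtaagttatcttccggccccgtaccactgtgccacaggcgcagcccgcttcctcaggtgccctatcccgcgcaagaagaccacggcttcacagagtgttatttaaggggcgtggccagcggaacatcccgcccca
In MSMO1 the matches lay 185 to 181, 139 to 135, 76 to 72 and 34 to 30 bases before the start. In DHCR7 they lay 94 to 90 and 48 to 44 bases before it, and in INSIG1 170 to 166 bases before it.

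The libraries differed in size and depth before any gene was considered. Kept cells numbered 17206 without stretch and 20121 with stretch in the top channel, and 1951 in the bottom channel. The median number of UMIs (unique molecular identifiers, counted as captured RNA molecules) per kept cell was 10964, 9384 and 40387 in that order, and the median mitochondrial share was 9.64%, 10.4% and 4.09%. The bottom library also differed in cell cycle calls, with 52.6% of its 1709 cells of at least 3000 UMIs called G2/M, against 30.4% of 15699 and 32.1% of 18916 such cells in the top libraries. The cells carried the markers of their labelled epithelial type, with all 10 at 10 CPM (counts scaled to the same total in every library) or more in each library. Fibroblast and leukocyte markers summed to at most 8.65 and 6.66 CPM. Of 7 endothelial markers, EGFL7 alone passed 10 CPM, at 123 CPM without stretch, 101 CPM with stretch and 118 CPM in the bottom channel. The defining markers CDH5, CLDN5 and PECAM1 were low everywhere but highest in the bottom library, with CDH5 at 0.033, 0.057 and 0.744 CPM, CLDN5 at 0.0047, 0 and 0.770 CPM and PECAM1 at 0.574, 0.564 and 1.74 CPM. A group of 7 hepato-intestinal genes (APOA1, APOA2, APOC3, FABP1, TTR, AGR2 and APOE) summed to 340 and 313 CPM in the top libraries and to 2.24 CPM in the bottom library. Between 6 and 88 kept barcodes were shared by a pair of libraries. Depth, phase and these marker genes differed together with the channel, so they and the channel cannot be told apart, and their part in the results on the bottom library was not tested.

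Levels are given as CPM over all kept cells of a library. With 1 library per group no test was possible, and 95% intervals (exact Poisson for a level, exact conditional binomial for a ratio, Clopper-Pearson for a share) cover counting error only. They are too narrow, since the variance over cells was above the mean, where independent counts give equality. At 10000 UMIs per cell it was 3.47 to 5.19 times the mean for the summed members. For single members it ran from 1.04 times (CYP51A1, stretched top) to 2.93 times (HMGCS1, not stretched top). A gene was called different at 1.5-fold or more on the log2(CPM + 1) scale with at least 10 CPM in either library. In bulk sums such as these, fewer cells with a transcript and less transcript per cell cannot be told apart, so the shares of positive cells follow further on.

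The mevalonate arm is represented by HMGCS1 and IDI1. HMGCS1 (chr5:43289395-43313512, − strand, GENCODE 29 on hg38) encodes the synthase that joins acetyl-CoA units into HMG-CoA, and stood at 121 CPM without stretch, 134 CPM with stretch and 120 CPM in the bottom channel. IDI1 (chr10:1039152-1049170, − strand) encodes the isomerase that makes the activated isoprene units, and stood at 150.05, 175 and 189 CPM in the same order. HMGCS1 was highest in the stretched top library, and IDI1 was highest in the bottom library, with the not stretched library lowest for IDI1.

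The next steps make and oxidise squalene. FDFT1 (chr8:11795573-11839309, + strand), squalene synthase, commits isoprenoids to sterols and stood at 181 CPM without stretch, 217 CPM with stretch and 167 CPM in the bottom channel. SQLE (chr8:124998497-125022283, + strand), squalene epoxidase, is a rate-limiting step that uses oxygen and stood at 109, 89.2 and 105 CPM. These neighbouring steps stood at opposite ends in the stretched top library, which was the highest for FDFT1 and the lowest for SQLE. Both had a lower CPM in the bottom than in the not stretched library.

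CYP51A1 (chr7:92112151-92134803, − strand) is the cytochrome P450 that takes the first methyl group off lanosterol. It stood at 5.59 CPM without stretch, 6.24 CPM with stretch and 25.7 CPM in the bottom channel (95% interval 24.5 to 26.8). Both top libraries were below the 10 CPM minimum, and the bottom library stood above both. Lanosterol is trimmed further by MSMO1 (chr4:165327623-165343160, + strand), the methyl sterol oxidase, at 115, 146 and 173 CPM in the same order. DHCR7 (chr11:71428193-71452868, − strand), the reductase that turns 7-dehydrocholesterol into cholesterol, stood at 66.1, 66.2 and 65.5 CPM. MSMO1 was lowest without stretch and highest in the bottom channel, while the 3 DHCR7 levels lay within 1 CPM of each other.

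INSIG1 (chr7:155297776-155310235, + strand) is no enzyme but the sterol-sensing anchor of SCAP, and is itself an SREBP target. It stood at 77.5 CPM without stretch, 75.4 CPM with stretch and 55.2 CPM in the bottom channel. The bottom library was the lowest, and the top libraries differed 1.03-fold.

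**Figure D1:**
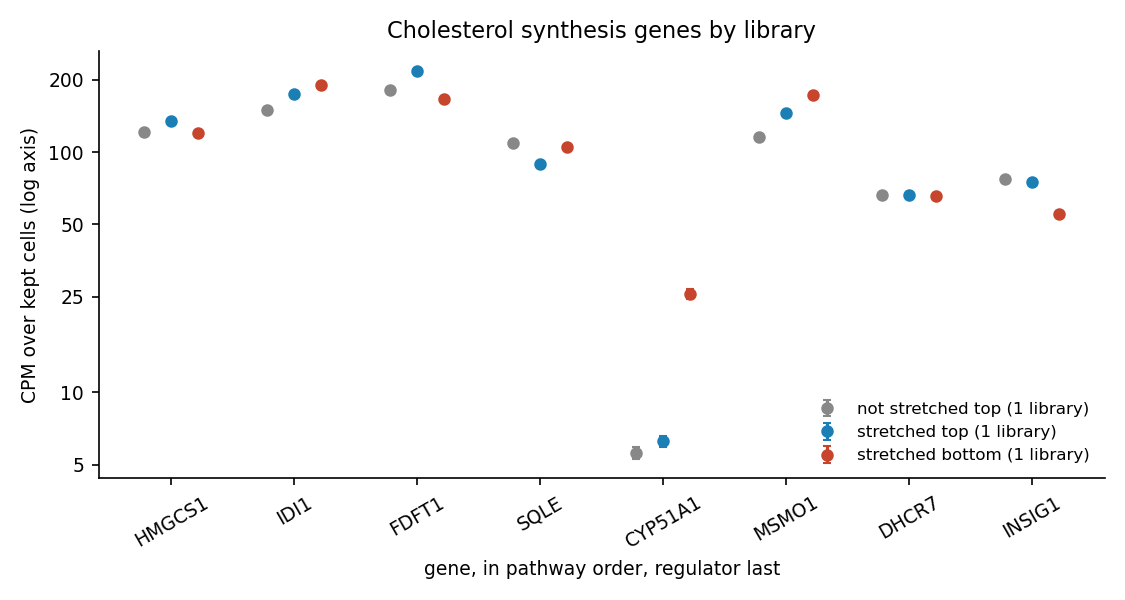
Levels of the 8 members in CPM (vertical log axis) in the 3 libraries, as points with exact Poisson 95% intervals of counting error. CYP51A1 stands at 5.59 and 6.24 CPM in the top libraries and at 25.7 CPM in the bottom library, while the 3 DHCR7 points are level.

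Stretch was compared within the top channel first. None of the 7 members tested was past 1.5-fold in either direction, and CYP51A1 was under the minimum. Over all 9119 genes tested, 0.175% were called higher and 0.592% lower. The largest member difference was MSMO1, 1.27-fold higher with stretch (95% interval 1.25 to 1.29). SQLE came next, in the other direction, 1.22-fold lower (1.20 to 1.24). FDFT1 was 1.20-fold higher (1.19 to 1.22) and IDI1 1.17-fold higher (1.15 to 1.19). The median log2 ratio of the 7 members was 0.14, against −0.16 over all genes tested. That last shift depends on scaling, since TMM and median of ratios factors place it at 0.02 and 0.03. The same factors raise the share of higher calls among all calls from 22.9% to 87.5% and 88.4%, against 35.3% with totals that leave out mitochondrial and ribosomal protein genes, and turn the INSIG1 ratio from −0.04 to at most 0.15.

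The other enzymes of the pathway showed similarly small sizes between the top libraries. Of 21 cholesterol enzymes, 20 were tested and 0 were past 1.5-fold, with a median log2 ratio of 0.07. Among 16 genes of SREBP control, 2 were past 1.5-fold lower with stretch, where 0.592% of all 9119 genes tested were called lower. SREBF1, which encodes the SREBP of fatty acid synthesis, stood at 84.6 CPM without and 54.6 CPM with stretch, 1.55-fold lower (95% interval 1.51 to 1.59). SEC24D, a subunit of the COPII coat that buds vesicles from the endoplasmic reticulum, stood at 39.7 and 25.8 CPM, 1.53-fold lower (1.48 to 1.59). SREBF1 was past the threshold in 10 and SEC24D in 7 of 13 other settings, and neither was under median of ratios scaling. SREBF2, which encodes the SREBP of cholesterol synthesis, stood at 138 and 122 CPM and was not past the threshold. None of 12 sterol uptake and transport genes and none of 7 fatty acid SREBP targets tested passed it.

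Between the channels under stretch, 1 of the 8 members was past 1.5-fold higher in the bottom library and 0 were lower. Over all 8870 genes tested, 7.93% were called higher and 11% lower, so the count of members is near the background. The member was CYP51A1, at 4.11-fold (95% interval 3.83 to 4.41). Of the 8870 genes, 14 had a larger log2 ratio. INSIG1 was 1.37-fold lower in the bottom library (1.32 to 1.41) and FDFT1 was 1.30-fold lower (1.28 to 1.33). MSMO1 was 1.19-fold higher (1.16 to 1.21), SQLE 1.18-fold higher (1.15 to 1.21) and IDI1 1.08-fold higher (1.06 to 1.10). HMGCS1 was 1.12-fold lower (1.10 to 1.15) but slightly higher, by 0.06 on the log2 scale in cells thinned to 3000 UMIs and by 0.01 with equal cell weights, and IDI1 was at −0.02 with totals that left out mitochondrial and ribosomal protein genes. For DHCR7 the interval of the ratio, 0.958 to 1.02, held equality, and its log2 ratio of −0.01 was above 0 in 8 of 13 settings. The median over the members was 0.05, against −0.00 over all genes tested. The share of higher calls among all calls was 41.8%, and 53.8% with median of ratios scaling, 18.9% with the totals that left out mitochondrial and ribosomal protein genes and 59.1% with every cell weighted equally.

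Cells of 20000 to 60000 UMIs, a range that all 3 libraries hold, gave a closer match in depth, with 1474 cells in the stretched top and 998 in the bottom library. The match was not full, as these cells held 35970745 and 42164833 UMIs in that order, so the bottom cells were still deeper. In those cells the log2 ratio of CYP51A1 was 2.03 against 1.88 over all kept cells. MSMO1 was 0.60 against 0.25 and then passed 1.5-fold. INSIG1 was −0.39 against −0.44 and FDFT1 −0.36 against −0.38.

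**Figure D2:**
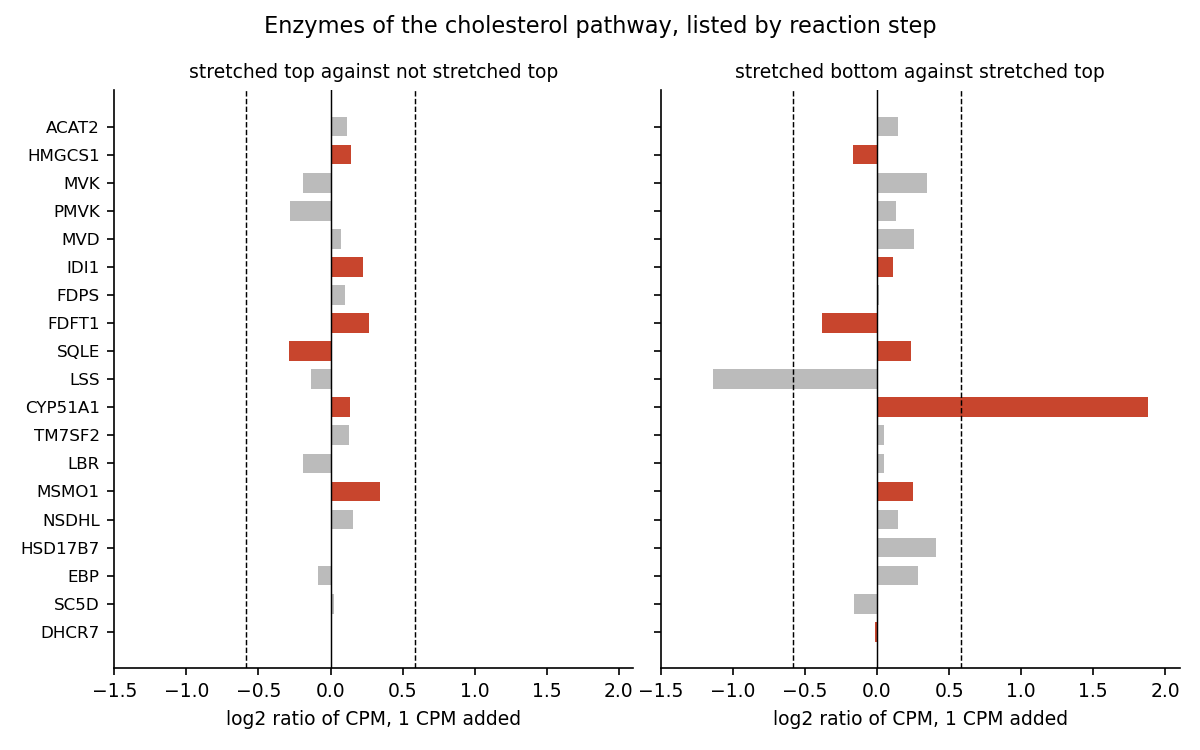
Log2 ratios of CPM + 1 (horizontal axis) for cholesterol enzymes, listed by reaction step with members in red and 1.5-fold as dashed lines, for stretched top against not stretched top and stretched bottom against stretched top. Most enzymes lie within 1.5-fold, with CYP51A1 at 1.88 and LSS at −1.14 in the comparison of channels.

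The enzyme next to CYP51A1 in the pathway lay on the other side. LSS (chr21:46188141-46228824, − strand), which closes squalene epoxide into lanosterol, stood at 32.9 CPM without stretch, 29.8 CPM with stretch and 13.02 CPM in the bottom channel, 2.29-fold lower there than in the stretched top library (95% interval 2.14 to 2.45). Of the 21 enzymes, 2 were past 1.5-fold lower between the channels, LSS among them, and CYP51A1 alone was past it higher. The median of the 21 was 0.11. All 8 genes of the mevalonate arm stayed within 1.5-fold, with a median of 0.12.

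A few control and uptake genes were past the threshold between the channels, where 11% of all genes tested were called lower. SREBF2 stood at 76.4 CPM against 122 CPM in the stretched top, 1.59-fold lower (1.55 to 1.64), and INSIG2, the paralog of INSIG1, at 10.3 against 20.7 CPM, 2.00-fold lower (1.86 to 2.17). With equal cell weights the SREBF2 log2 ratio was −0.35 in place of −0.67, no longer past the threshold. SREBF2 and INSIG2 were 2 of 16 genes of SREBP control, with 0 higher, a share near that background. Of 12 uptake and transport genes, 3 were lower and 0 higher. NPC2, which hands cholesterol out of lysosomes, stood at 64.2 against 123 CPM. LIPA, the lysosomal acid lipase, stood at 13.9 against 26.7 CPM. OSBP, an oxysterol-binding exchanger, stood at 22.01 against 36.1 CPM. Of 7 fatty acid SREBP targets tested, SCD, the stearoyl-CoA desaturase, stood at 290 against 476 CPM and ACSS2, an acetyl-CoA synthetase, at 27.9 against 51.0 CPM, both lower, and 0 were higher. None of 8 isoprenoid branch genes tested passed the threshold in any comparison.

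Against the not stretched top library, the bottom library differed by both channel and stretch, and this comparison shares its libraries with the others. CYP51A1 was 4.59-fold higher (95% interval 4.27 to 4.94) and MSMO1 1.51-fold higher (1.48 to 1.54), just past the threshold and past it in 10 of 13 other settings, not under the stricter cell filter among others. These were 2 of 8 members higher and 0 lower, where 6.8% of 9218 genes were called higher and 20.7% lower. IDI1, the next member by size on the higher side, was 1.26-fold higher (1.24 to 1.29), and INSIG1 was 1.41-fold lower (1.36 to 1.45). Enzyme calls were 2 higher and 2 lower, LSS again among the lower. SREBF1, SREBF2, INSIG2, SEC23A and SEC24D, 5 of 16 control genes, were past 1.5-fold lower, as were NPC2, LIPA and OSBP of the uptake genes, SCD and ACSS2 of the fatty acid targets, and NR1H3, which encodes the oxysterol receptor LXR-alpha, at 6.32 against 10.0 CPM. The SREBF1 and NR1H3 calls were barely past the threshold and each held in 5 of 13 other settings, with log2 ratios of −0.61 and −0.59 that were −0.35 and −0.36 under median of ratios scaling. ACSS2 was past it in 9, SCD in 10 and SEC23A in 11 of the 13. SEC23A, a COPII coat partner of SEC24D, stood at 28.9 against 46.4 CPM. The median over all genes tested was −0.18, and TMM and median of ratios scaling placed it at 0.05 and 0.09 and the share of higher calls at 57.1% and 62.9% in place of 24.7%. Totals without mitochondrial and ribosomal protein genes placed that share at 14.6%. Under the median of ratios, HMGCS1, SQLE, FDFT1 and DHCR7 turned from ratios below 0 to 0.23, 0.20, 0.14 and 0.24, so only CYP51A1, MSMO1, IDI1 and INSIG1 kept their sign in all 13 settings tried for this comparison.

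The CYP51A1 count needs a limit of its own. In GENCODE 29, 99.2% of the last 1000 exonic bases of CYP51A1, the part that 3′ libraries read, are also exonic in AC000120.2 (chr7:92112159-92179511, − strand), a protein-coding gene model on the same strand that is not among the features of the deposited matrices. The other 7 members shared 0% of theirs. Over all genes tested between the channels, 57 of 208 genes with at least 25% of that end shared were past 1.5-fold higher, or 27.4%, against 624 of 8511 genes with none shared, or 7.33%. Their median log2 ratios were 0.25 and −0.01. Between the top libraries 1 of 196 such genes was past 1.5-fold higher, or 0.510%, against 14 of 8771 with none shared, or 0.160%. The part of the shared end in the CYP51A1 difference was not tested. Of 8 genes around CYP51A1 with enough counts, 0 were past 1.5-fold between the channels. AKAP9 stood at 64.1 CPM in the stretched top and 68.4 CPM in the bottom library, and KRIT1 at 29.7 and 29.3 CPM. The largest difference among the 8 was GATAD1 at 24.3 and 16.6 CPM, 1.46-fold lower, and ANKIB1 stood at 61.1 and 47.0 CPM, 1.30-fold lower. Against the not stretched library GATAD1 and ANKIB1 were past the threshold, 1.84-fold and 1.56-fold lower.

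**Figure D3:**
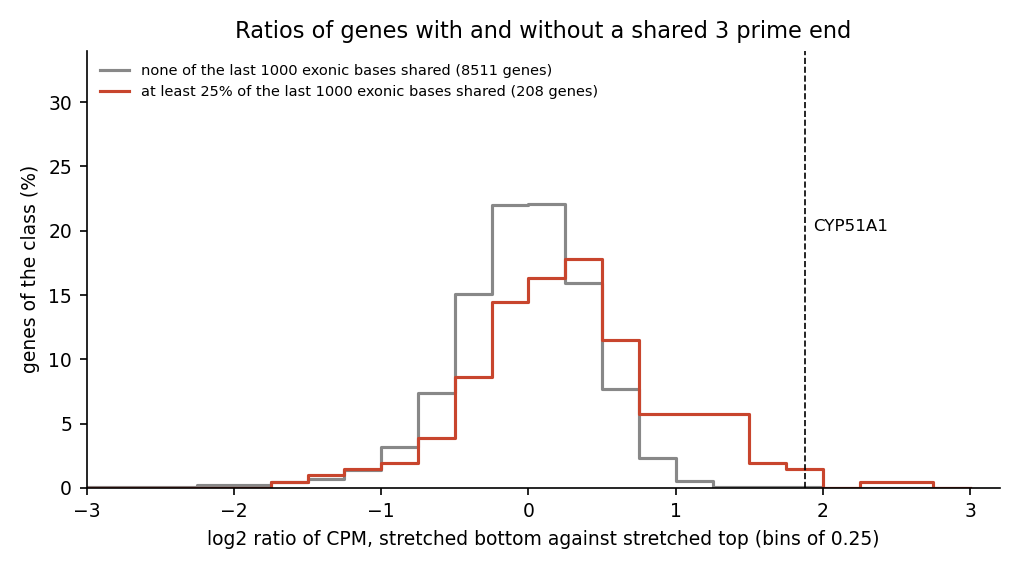
Distribution of log2 ratios, stretched bottom against stretched top, for genes with none of the last 1000 exonic bases shared with another gene and for genes with at least 25% shared, as percent of genes per bin. The shared group has its median at 0.25 and the other at −0.01, and CYP51A1 is marked at 1.88.

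Shares of cells with at least 1 UMI were compared after each cell had been thinned to 3000 UMIs, which left out 1507, 1205 and 242 shallower cells of the 3 libraries. CYP51A1 was found in 1.58% of cells without stretch, 1.73% with stretch and 6.61% in the bottom channel (95% interval 5.48 to 7.90). Without thinning those shares were 6.39%, 6.18% and 48.4%. MSMO1 was found in 27.2%, 33.3% and 37.5% of thinned cells, and IDI1 in 31.4%, 36.3% and 38.5%. The order of the libraries by share was the order by CPM for these 3 genes.

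INSIG1 was found in 18.8%, 18.5% and 15.2% of thinned cells, and FDFT1 in 37.9%, 44.1% and 36.6%. SQLE was found in 24.5%, 21.7% and 25.5%. HMGCS1 was found in 25.4%, 27.8% and 28.4%, and DHCR7 in 17.0%, 17.5% and 19.0%. For HMGCS1, DHCR7 and SQLE the bottom library had the highest share although its CPM was not the highest, so no order was read from those shares. Without thinning, every member was found in more cells of the bottom library than of either top library, from 48.4% for CYP51A1 to 82.6% for FDFT1, where the median depth is also highest. No cell type known to lack these genes was present to give the share that free RNA produces.

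Cell cycle phase was called from S and G2/M genes, with cholesterol genes left out, in cells of at least 3000 UMIs. The 8 members summed to 7.66 UMIs per 10000 in G1, 8.90 in S and 8.60 in G2/M cells of the not stretched top library. In the stretched top library the sums were 8.87, 9.46 and 9.17. In the bottom library they were 11.4, 8.84 and 8.25, so G1 cells were the lowest class in both top libraries and the highest in the bottom library. Over all kept cells the sums were 8.25, 9.09 and 9.002. G1 cells had the fewest UMIs per cell of the phase classes in each library, so phase and depth were not separated in these sums.

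Individual members took unequal parts in the G1 cells of the bottom library. HMGCS1 stood at 166 CPM in G1 and 98.0 CPM in G2/M cells there, against 133 and 125 CPM in the stretched top library. MSMO1 stood at 237 CPM in G1 and 155 CPM in G2/M cells of the bottom library, against 153 and 143 CPM. SQLE stood at 138 and 96.2 CPM in the bottom library, against 87.6 and 90.2 CPM. All 8 members were higher in G1 than in G2/M cells of the bottom library. The G1 class held 397 cells of the bottom library, or 23.2% of those with a phase call, against 51.8% and 51.3% in the top libraries.

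Weighting the 3 phases equally moved the log2 ratio of MSMO1 between the channels from 0.25 to 0.36, of SQLE from 0.23 to 0.30 and of HMGCS1 from −0.16 to −0.06. CYP51A1 was at 1.91 under that weighting, and the count of members past 1.5-fold stayed at 1.

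Depth classes were related to the sums in different ways. In the not stretched top library the members summed to 7.15 UMIs per 10000 in cells of 1000 to 5000 UMIs, 8.05 in cells of 5000 to 20000 and 8.79 in cells of 20000 to 60000. In the stretched top library the sums were 8.48, 9.09 and 9.25, and in the bottom library 7.47, 10.3 and 9.71, with 7.94 in its 396 cells of over 60000 UMIs. Across cells of 10000 UMIs or more, thinned to 10000, Pearson's r between the summed members and log2 depth was 0.09, 0.02 and −0.10. With the mitochondrial share r was −0.11, −0.02 and 0.17.

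**Figure D4:**
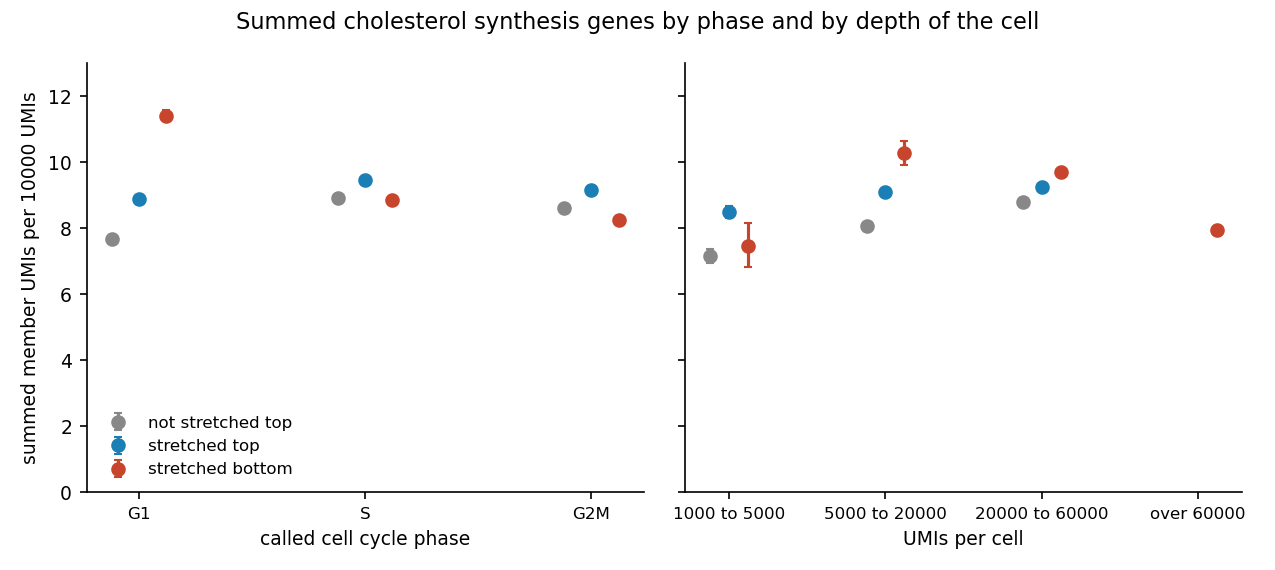
Summed UMIs of the 8 members per 10000 UMIs (vertical axis) by cell cycle phase and by depth class in the 3 libraries, with exact Poisson 95% intervals. The class over 60000 UMIs is drawn for the bottom library only, as the not stretched library had 2 such cells and the stretched top none. G1 is the highest phase in the stretched bottom library, at 11.4, and the lowest in both top libraries, at 7.66 and 8.87.

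A small population of the top channel showed another mix of members. Cells with at least 10 hepato-intestinal marker UMIs per 10000 numbered 441 without stretch and 444 with stretch, and 0 of 1951 in the bottom library. Without stretch HMGCS1 stood at 238 CPM in these cells against 118 CPM in the other cells, DHCR7 at 130 against 64.0 CPM, INSIG1 at 133 against 75.7 CPM and FDFT1 at 139 against 182 CPM. With stretch HMGCS1 stood at 204 against 132 CPM, DHCR7 at 103 against 65.1 CPM, FDFT1 at 168 against 219 CPM and MSMO1 at 108 against 147 CPM. Thus HMGCS1 and DHCR7 were high and FDFT1 low in these cells of both libraries. Members past 1.5-fold higher were 3 of 8 without and 2 of 8 with stretch, where 29.5% and 28.9% of all genes tested were, so the counts are near the background. The lower calls over all genes were 14% and 10.8%, and 0 members were among them. Leaving these cells out kept CYP51A1 as the only member called between the channels.

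From cell to cell, the summed members spread widely within each library. At 10000 UMIs per cell the median sum was 7 UMIs without stretch, 8 with stretch and 8 in the bottom channel, over 9538, 9094 and 1550 cells. The range from the 5th to the 95th percentile was 2 to 19, 2 to 20 and 1 to 24. No member was detected in 1.17%, 0.671% and 1.87% of cells, and all 8 were detected in 0.587%, 0.495% and 3.61%. Detection of all 8 is limited by CYP51A1, which was found in 5.46%, 5.90% and 22.7% of these cells. At least 6 members were detected in 24.5%, 27.5% and 31.3% of cells.

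Among the members HMGCS1 had the most uneven counts, with a variance over mean of 2.93, 2.14 and 2.65 at that depth. The median gene at 10 CPM or more had 1.10, 1.09 and 1.14. Those genes were not matched to HMGCS1 by level. Their median was 0.35, 0.34 and 0.37 UMIs per cell, against a mean of 1.24, 1.36 and 1.33 for HMGCS1. The highest cell of all, in the not stretched top library, held 145 member UMIs of which 65 were HMGCS1, and it belonged to the hepato-intestinal marker high cells. Without that population the HMGCS1 value of that library was 2.43.

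The members' counts were positively correlated across the cells of each library. At 10000 UMIs per cell, Pearson's r of log2(UMIs + 1) was above 0 in 28 of 28 pairs in each library, with a median of 0.16 without stretch, 0.14 with stretch and 0.23 in the bottom channel. The members with 7970 other genes had a median of 0.01, 0.01 and 0.00, and a 95th percentile of 0.05, 0.05 and 0.07. Those genes were not matched to the members by level, and the part of level in the gap was not tested. The cells of a library share its preparation, its depth and their phase makeup, and the values are descriptions. Pairs with CYP51A1 were the weakest in the top libraries, with a median of 0.05 and 0.04 where it is sparse, and had a median of 0.15 in the bottom library. The strongest pair of each library was HMGCS1 with MSMO1, at 0.28, 0.28 and 0.39. Within G1 cells alone the medians were 0.20, 0.17 and 0.26. At 3000 UMIs per cell they were 0.09, 0.09 and 0.09, so the larger value of the bottom library was seen at the greater depth only.

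**Figure D5:**
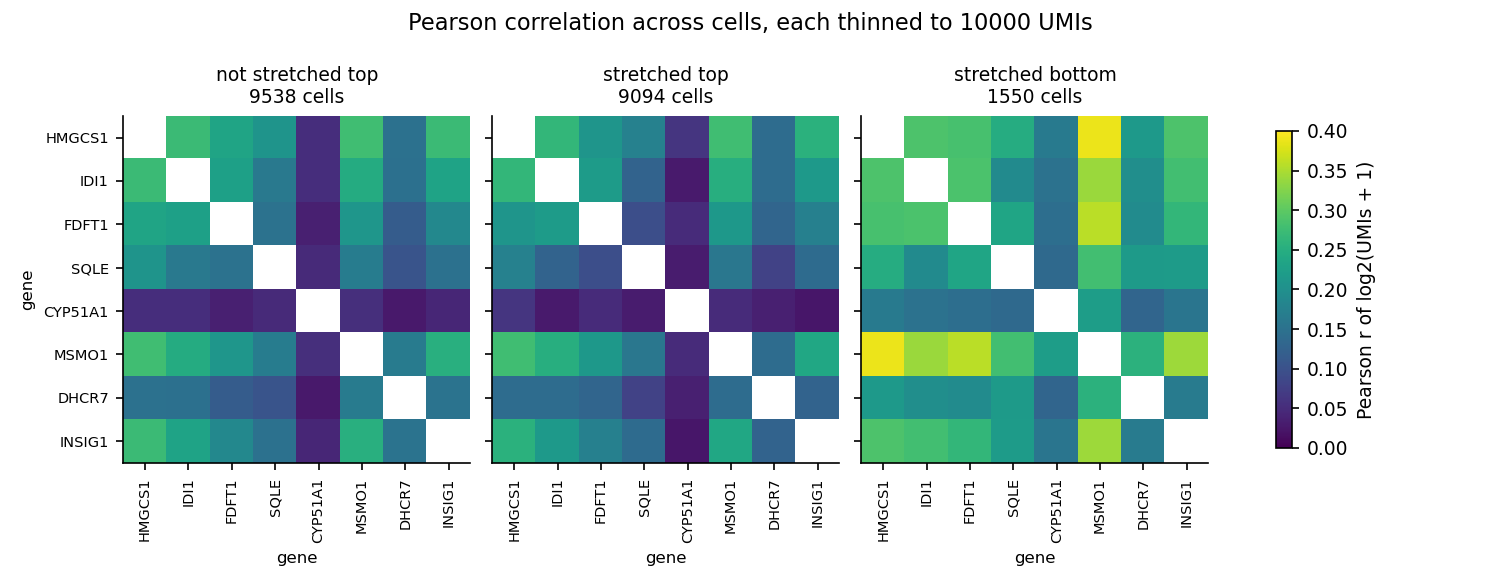
Pearson's r between each pair of members across cells thinned to 10000 UMIs in the 3 libraries (colour, no unit; the diagonal is blank). All 28 pairs are above 0 in each library, and the pairs with CYP51A1 are the lowest in the top libraries.

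Genes whose counts followed the summed members most closely were ranked by the lowest r of the 3 libraries among 7970 genes, whose median was −0.01. SCD ranked 1 at 0.38, FDPS, which makes farnesyl diphosphate, ranked 2 at 0.32, MVD, the mevalonate diphosphate decarboxylase, ranked 4 at 0.28 and ACAT2, the first thiolase, ranked 5 at 0.27. SREBF2 ranked 9 at 0.20. Of the 14 other enzymes of the pathway, 8 were in the first 25 ranks, as were 7 of 7 fatty acid SREBP targets and 4 of 12 uptake genes. Of the control genes 1 of 14 was, and of the isoprenoid branch genes 0 of 8. Of 10 epithelial markers 0 were in the first 25 and 4 in the first 100. LSS, the enzyme with the largest difference between the channels after CYP51A1, ranked 30 at 0.11.

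Outside these lists the 5 highest were HSD17B12, a fatty acid elongation reductase, at 0.17, DBI, an acyl-CoA binding protein, at 0.16, ERG28, a scaffold of sterol demethylation enzymes, at 0.16, FGFBP1 at 0.15 and ACSL3, an acyl-CoA synthetase, at 0.15. ERG28 reached 0.33 in the bottom library against 0.16 in each top library.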

How the data were processed

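The deposited files are 3 matrices of UMI counts for each gene in each barcode, written by Cell Ranger 7.0.0 per the file headers, on hg38 per the submitters' processing notes. Which annotation was used is not given in the sources used here. The lowest UMI total of a listed barcode was 500. A cell was kept if it had 500 genes or more, 1000 UMIs or more, and no more than 20% mitochondrial UMIs. The filter left out 34.1%, 20.1% and 44.5% of the barcodes, in the order not stretched top, stretched top, stretched bottom. The kept cells held 212503735, 210814252 and 76641034 UMIs, so that a count of 0 (3 counts as the floor) allows up to 0.0141, 0.0142 and 0.0391 CPM.

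UMIs were summed per library and scaled to CPM. Fold values and their intervals are ratios of CPM with nothing added, while log2 ratios and calls used log2(CPM + 1). The 2 differ most for genes of low CPM, such as CYP51A1 between the channels, at 4.11-fold and a log2 ratio of 1.88. The genes named were the 8 members, every gene of the listed pathway groups past 1.5-fold in any comparison, SREBF2, and the 5 genes outside the lists most correlated with the members. Some genes of these lists are counted but not reported here by name. The members and lists were chosen with earlier results of these data known. The epithelial, endothelial, fibroblast, leukocyte and hepato-intestinal lists were set by symbol. Doublets were not removed in the main values, and leaving out the 5% of cells with most UMIs was tried instead. Cells were thinned to 3000 UMIs for shares and to 10000 for correlations (seed 1). Phases came from scanpy 1.11.5. Shared 3′ ends were computed from GENCODE 29 exons, matched for 19902 of 19912 features, and promoters came from RefSeq. Gene sums were computed in Python 3.11.15 with numpy 2.4.6, scipy 1.17.1 and pandas 2.3.3, and TMM factors in R 4.3.3 with edgeR 4.0.16, which was used for no test. The ratio and interval code was tested on simulated data.

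Counts of members and cholesterol enzymes past the threshold were recomputed without the cell filter and with a stricter filter (2000 genes, 5000 UMIs, 10% mitochondrial). Other scalings, cell weights, depth ranges, additions of 0.1 and 5 CPM, minimums of 1 and 50 CPM and a 2-fold threshold were also tried. Log2 ratios of the members and of the pathway genes called were recomputed in the same settings, save the minimums and the threshold. The medians and calls over all genes were recomputed under the other filters, scalings, weights and depths. Shares were recomputed at other thinning depths, and correlations among members also in G1 cells. The remaining results were not recomputed.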

Additional observations from a re-analysis of the deposited data

How the results depend on the processing

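Of 204 recomputed counts of genes past the threshold, 172 stayed within 1.5 times the main count and 32 moved. The main count was 0 for all counts between the top libraries and for members called lower elsewhere, where staying the same says little. Of 897 recomputed log2 ratios, 421 stayed inside the counting interval of the main ratio and 476 moved outside it. Of 54 recomputed shares and correlations, 5 stayed within the interval or range of the main value and 49 moved. Stretched bottom against not stretched top, the 2 enzymes called lower were 1 without the cell filter, under TMM, under median of ratios, with equal cell weights, in cells thinned to 3000 UMIs, without the 5% of cells with most UMIs, with 5 CPM added, at a minimum of 50 CPM and at 2-fold. In the same comparison the 2 members and the 2 enzymes called higher were each 1 under the stricter cell filter, with totals without mitochondrial and ribosomal protein genes, with 5 CPM added, at 50 CPM, at 2-fold and without genes with a shared 3′ end, and the enzymes called higher were 5 under median of ratios. Stretched bottom against stretched top, the 2 enzymes called lower were 1 with equal cell weights, in thinned cells, at 50 CPM and at 2-fold. The 1 member and 1 enzyme called higher there were 2 in cells of 20000 to 60000 UMIs, and 0 at 50 CPM and without genes with a shared 3′ end, where CYP51A1 itself was left out. The cause of the other moves was not tested. Leaving out genes with at least 25% of the end shared was chosen after seeing the data.

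CYP51A1 stayed past 1.5-fold between the channels in 13 of 13 settings for its ratio, from 1.45 with 5 CPM added to 2.03 on the log2 scale, and LSS in 13 of 13, SREBF2 in 10 and SCD in 10. MSMO1 stayed past it against the not stretched library in 10 of 13. Between the top libraries SREBF1 stayed past it in 10 of 13 and SEC24D in 7 of 13. No paired analysis was possible because each group had 1 library. Leaving out a replicate was not possible for the same reason, and nothing here measures the spread between chips. CYP51A1 in the top libraries rests on 1188 and 1315 UMIs.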
